A study of Mus musculus with 18 samples.

Results

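The 8 genes described here encode the proteins through which the antibody receptor TRIM21 builds ubiquitin chains and the unfoldase that works ahead of the proteasome: the ubiquitin-conjugating (E2) enzymes Ube2w, Ube2n, Ube2d1, Ube2d2a and Ube2d3, the E2 partners Ube2v1 and Ube2v2, and Vcp (p97). They were listed by name for their part in TRIM21 activity, and are 8 of the 24062 genes in the count files. The series holds 18 polyA RNA-seq libraries from mouse NIH3T3 cells, labelled embryonic fibroblasts. The parental line, called WT below, was compared with a derived line carrying the genotype mCherry-mTRIM21, mouse TRIM21 fused to a red fluorescent protein, called TRIM21 below. Cells of each line received PBS, BSA (serum albumin, the control protein) or an antibody (ab18447, called IgG) by electroporation at 1400 V (2 pulses, 20 ms), with protein at 7.5 µg per reaction, and RNA was taken after 16 h. Each of the 6 groups held 3 samples, numbered 10, 11 and 14 in their titles. All groups, including those given PBS, were electroporated, so there was no untouched control. The labels name neither the promoter of the fusion nor whether the derived line is a single clone, and each line is 1 line, so a difference between the lines cannot be told apart from any other difference between a derived line and its parent. Nothing in the labels says that the 3 samples of a group were separate cultures, so p-values measure only the spread between these samples.

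TRIM21 is a cytosolic E3 ubiquitin ligase whose PRYSPRY domain binds the constant part of antibodies and whose RING domain recruits E2 enzymes. As its activity is usually described, Ube2w places the first ubiquitin on the N-terminus of TRIM21, and Ube2n paired with Ube2v1 or Ube2v2 extends it into a K63-linked chain. The Ube2d enzymes serve many E3 ligases and work with TRIM21 in reconstituted reactions, and Vcp, a hexameric ATPase, pulls ubiquitinated proteins apart before they are degraded.

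The active site separates the enzymes from the partners, and the coding stretch around it is shown for the 4 enzymes whose site could be printed. Each stretch holds 42 bases of the GENCODE M21 transcript on GRCm38, read 5′ to 3′ on the coding strand and lying in 1 exon, and the capitals mark the codon of the catalytic cysteine that carries ubiquitin.
Ube2n: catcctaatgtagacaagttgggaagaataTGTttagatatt
Ube2w: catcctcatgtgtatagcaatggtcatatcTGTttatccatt
Ube2d1: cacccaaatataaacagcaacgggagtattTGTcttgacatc
Ube2d3: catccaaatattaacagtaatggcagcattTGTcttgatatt
They lie at chr10:95541403-95541444 on the plus strand for Ube2n, chr1:16585360-16585401 on the minus strand for Ube2w, chr10:71258241-71258282 on the minus strand for Ube2d1 and chr3:135459999-135460040 on the plus strand for Ube2d3. Relative to Ube2d3, the stretch differed at 8 of 42 bases in Ube2d1, at 14 in Ube2n and at 17 in Ube2w. The codon pattern searched (histidine, proline, asparagine or histidine, then 7 codons, then cysteine) occurred once in each of the enzymes and had 0 matches in the coding sequences of Ube2v1 and Ube2v2, whose products are known as E2 variants without a catalytic cysteine. Over the whole coding sequence, Ube2v1 and Ube2v2 were identical at 76.6% of aligned bases, Ube2d2a and Ube2d3 at 86.4%, Ube2d1 and Ube2d3 at 77.3% and Ube2d1 and Ube2d2a at 76.0%.

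Gene counts summed to 20314542 to 29766433 per sample in the TRIM21 line and 19509017 to 26521824 in WT, and values below are counts per 1000000 gene counts (CPM) after TMM scaling. Trim21 itself stood at 984 to 1187 CPM in the 9 TRIM21 samples and at 6.54 to 9.73 CPM in the 9 WT samples, so every sample matched its line. All 8 fibroblast markers were present, with a summed level of 16433 to 27541 CPM in the TRIM21 line and 23276 to 31140 CPM in WT. Epithelial markers summed to at most 0.583 CPM and endothelial markers to at most 2.45 CPM, and leukocyte markers to at most 8.65 CPM, nearly all of it Cd68, with Cd3e at 0 in every sample.

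All 8 genes passed the filter on low counts, and none of them differed between the lines or between treatments at an adjusted p under 0.05 in any of 14 comparisons, by edgeR's quasi-likelihood test or by DESeq2's Wald test. At an unadjusted p under 0.05 in edgeR, only Ube2n did so among the lines and treatments, in 3 comparisons that use the PBS samples of the TRIM21 line. Averaged over the treatments, their log2 differences (TRIM21 minus WT) ran from -0.11 for Ube2w to 0.092 for Vcp, with 4 of 8 below 0 (46% of all tested genes). In the same comparison 750 of 12140 tested genes were called (6.18%) and 21.4% had an unadjusted p under 0.05. Of all genes, 1244 were called without the number 14 PBS sample of the TRIM21 line and 500 without its number 10 IgG sample, against 750 with all samples. The median over the 8 was 0.030, against 0.014 over all tested genes. The 95% intervals of the 8 genes together reached from 0.855-fold to 1.21-fold, so larger average differences lay outside them. Without the number 11 PBS sample of the TRIM21 line the median over the 8 was -0.021, with Vcp at 0.041, Ube2d2a at 0.035, Ube2v2 at 0.013, Ube2d3 at -0.056 and Ube2n at -0.096, and 0 of 8 were called. Of the fibroblast markers 7 of 8 were below 0 in this comparison (median -0.20), and 1 passed the test: Thy1, a surface glycoprotein, at 508 ± 59.5 CPM in the TRIM21 line and 619 ± 42.5 in WT (SD, n = 9 each; log2 difference -0.29, SE 0.071, edgeR adjusted p = 0.0207). The part of these marker levels in the members' values was not tested, and in these bulk samples fewer cells of a type and less RNA per cell cannot be told apart.

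**Figure D1:**
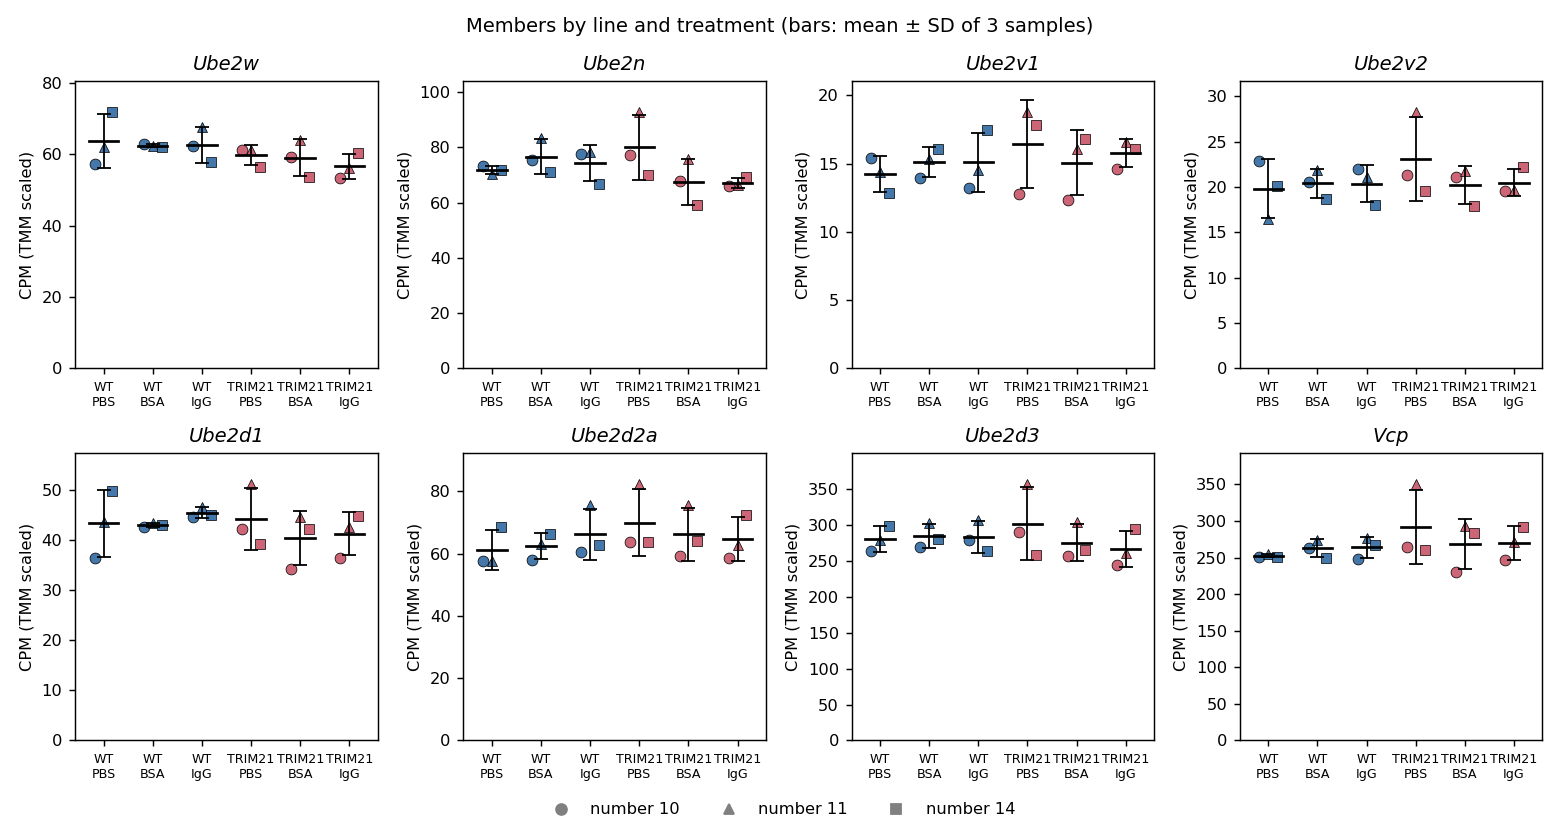
CPM of the 8 genes (y axis, starting at 0) in the 6 groups (x axis); points are samples shaped by number, and bars give the mean and SD of 3 samples. The groups of both lines overlap in nearly every panel, and the number 11 sample of the TRIM21 line after PBS is the highest point for every gene but Ube2w.

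Ube2w, the initiating E2 (chromosome 1, 16540790 to 16619489, minus strand), had the largest difference between the lines of the 8 genes. Over all 18 samples it also had the smallest spread. In WT it stood at 57.2, 62.1 and 71.9 CPM after PBS (numbers 10, 11 and 14, an order kept below), at 62.97, 62.4 and 62.0 after BSA and at 62.3, 67.8 and 57.8 after IgG. The TRIM21 line gave 61.3, 61.3 and 56.4 after PBS, 59.3, 64.1 and 53.7 after BSA and 53.4, 56.1 and 60.4 after IgG. The 2 lines overlapped, but the values of 71.9 and 67.8 in WT lay above every TRIM21 sample, and those of 53.4, 53.7, 56.1 and 56.4 in the TRIM21 line lay below every WT sample. The log2 difference was -0.11 (SE 0.056, 95% interval -0.23 to 0.010, edgeR adjusted p = 0.277). Within numbers 10, 11 and 14 it was -0.070, -0.085 and -0.17. Its coefficient of variation over all 18 samples was 7.66%, and its spread in log2 CPM was at percentile 10.7 of the tested genes. In WT alone that coefficient was 7.23%, above those of Vcp (4.24%), Ube2d3 (5.86%) and Ube2n (6.82%) and below those of the others.

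Ube2n, the E2 that forms K63 links (chromosome 10, 95515145 to 95545657, plus strand), stood in WT at 73.2, 70.2 and 71.7 CPM after PBS, 75.4, 83.5 and 70.9 after BSA and 77.5, 78.4 and 66.9 after IgG. The TRIM21 values were 77.2, 92.9 and 69.8 CPM after PBS, 68.0, 75.7 and 59.1 after BSA and 65.9, 66.5 and 69.3 after IgG. The TRIM21 line held both the highest and the lowest of the 18 values. The line difference was -0.056 (SE 0.064, 95% interval -0.19 to 0.078, edgeR adjusted p = 0.65).

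Ube2v1, the first E2 variant (chromosome 2, 167607638 to 167632095, minus strand), was among the 2 members with the fewest reads, with 268 to 514 counts per sample. It stood in WT at 15.4, 14.4 and 12.8 CPM after PBS, 13.9, 15.4 and 16.1 after BSA and 13.2, 14.6 and 17.5 after IgG. The TRIM21 line gave 12.8, 18.8 and 17.8 CPM after PBS, 12.3, 16.0 and 16.8 after BSA and 14.6, 16.6 and 16.1 after IgG. Within that line the number 10 sample was the lowest of each treatment. The line difference was 0.089 (SE 0.089, 95% interval -0.098 to 0.28, edgeR adjusted p = 0.598).

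Ube2v2, the second variant (chromosome 16, 15552077 to 15595773, minus strand), stood in WT at 22.9, 16.5 and 20.1 CPM after PBS, 20.6, 21.9 and 18.7 after BSA and 22.0, 21.2 and 18.03 after IgG. The TRIM21 values were 21.4, 28.3 and 19.5 CPM after PBS, 21.1, 21.7 and 17.9 after BSA and 19.6, 19.6 and 22.2 after IgG. Apart from the value of 28.3, the 2 lines covered nearly the same range. The line difference was 0.071 (SE 0.085, 95% interval -0.11 to 0.25, edgeR adjusted p = 0.67).

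Among the Ube2d enzymes, Ube2d3 (chromosome 3, 135438149 to 135468198, plus strand) stood in WT at 263, 279 and 299 CPM after PBS, 269, 302 and 281 after BSA and 279, 306 and 263 after IgG. The TRIM21 line gave 290.1, 357 and 258 CPM after PBS, 256, 304 and 265 after BSA and 245, 261 and 294 after IgG. The WT values lay inside the range of the TRIM21 values. Its line difference was the closest to 0 of the 8 genes, at -0.0096 (SE 0.067, 95% interval -0.15 to 0.13, edgeR adjusted p = 0.95).

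Ube2d1 (chromosome 10, 71254980 to 71285262, minus strand) stood in WT at 36.4, 43.6 and 49.8 CPM after PBS, 42.6, 43.3 and 42.9 after BSA and 44.5, 46.6 and 45.0 after IgG. The TRIM21 values were 42.2, 51.1 and 39.2 CPM after PBS, 34.3, 44.6 and 42.2 after BSA and 36.4, 42.6 and 44.7 after IgG. In WT the 3 IgG values lay above the 3 BSA values, which 16.9% of tested genes did in one direction or the other, and the difference of 0.080 had an SE of 0.13 (edgeR adjusted p = 0.882). The line difference was -0.066 (SE 0.074, 95% interval -0.22 to 0.088, edgeR adjusted p = 0.639).

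Ube2d2a (chromosome 18, 35771558 to 35809494, plus strand) stood in WT at 57.5, 57.5 and 68.7 CPM after PBS, 58.0, 63.2 and 66.2 after BSA and 60.4, 75.5 and 62.6 after IgG. The TRIM21 line gave 63.7, 82.4 and 63.6 CPM after PBS, 59.1, 75.6 and 64.0 after BSA and 58.5, 62.8 and 72.4 after IgG. The number 11 samples held the highest value in 3 of the 6 groups. The line difference was 0.080 (SE 0.075, 95% interval -0.077 to 0.24, edgeR adjusted p = 0.566), and within numbers 10, 11 and 14 it was 0.044, 0.17 and 0.016.

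Vcp, the unfoldase (chromosome 4, 42979963 to 43000507, minus strand), stood in WT at 251, 255 and 251 CPM after PBS, 263, 275 and 249.8 after BSA and 248, 277 and 267 after IgG. The TRIM21 values were 264, 351 and 260.4 CPM after PBS, 230.1, 293 and 284 after BSA and 246, 272 and 292 after IgG. After PBS the 3 TRIM21 values lay above the 3 WT values, as 15.4% of tested genes did in one direction or the other, and the difference was 0.21 (SE 0.12, edgeR adjusted p = 0.325). The line difference over the treatments was 0.092 (SE 0.067, 95% interval -0.049 to 0.23, edgeR adjusted p = 0.448). Within numbers 10, 11 and 14 it was -0.044, 0.18 and 0.12 for Vcp, and Ube2w and Ube2d2a were the only members with 1 sign in all 3. The coefficient of variation of Vcp was 12.5% in the TRIM21 line and 4.24% in WT (n = 9 each). With all 9 samples of each line, only Ube2w of the members varied less in the TRIM21 line than in WT (6.35% and 7.23%). The fit used 1 spread per gene for both lines, so its intervals do not show this difference in spread. The coefficients of the TRIM21 line include its number 11 PBS sample, the highest of all 18 for 7 of 8 members (351 CPM for Vcp). How far the difference in spread rests on that sample was not tested.

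**Figure D2:**
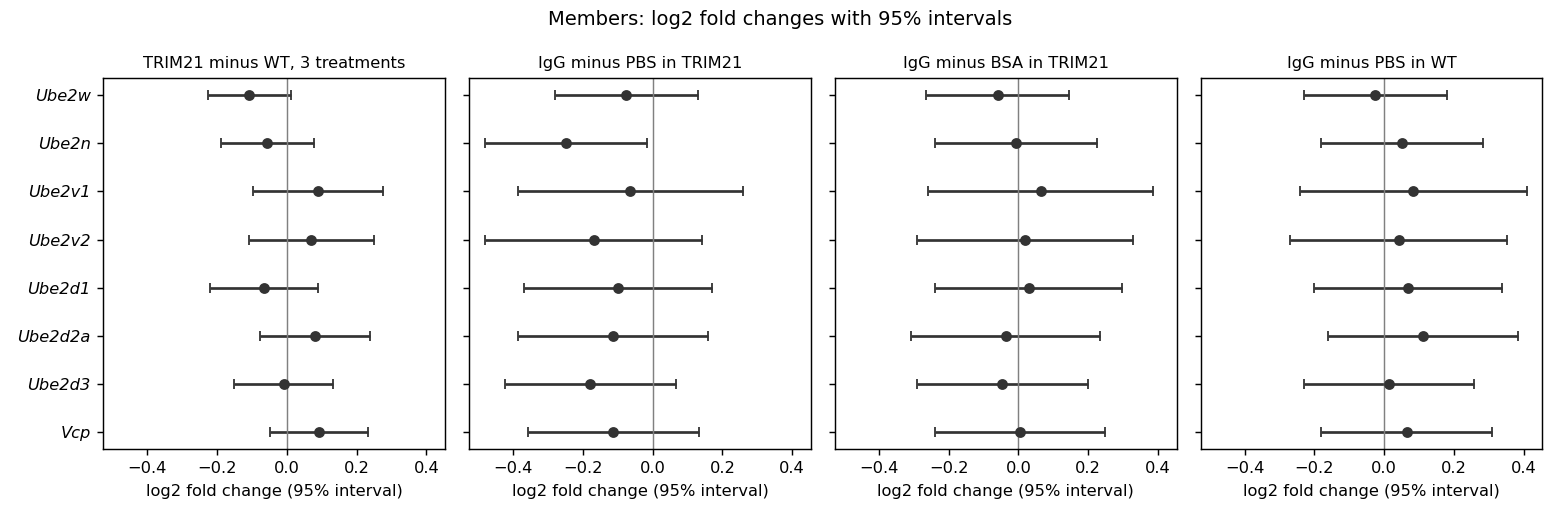
Log2 fold changes (x axis) of the 8 genes with 95% intervals in 4 comparisons from the fit of all 18 samples. Every interval includes 0 except that of Ube2n for IgG minus PBS in the TRIM21 line, which runs from -0.48 to -0.017 before adjustment.

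Within single treatments the lines also gave 0 of 8 called. After PBS, 7 of 8 members were above 0, with a median of 0.17 and a range of -0.095 to 0.22, while 50.9% of all tested genes were above 0 (1.71% called, 19.8% at an unadjusted p under 0.05). The 208 genes called became 1014 without the number 14 PBS sample of the TRIM21 line, 116 without its number 11 PBS sample and 98 without the number 14 PBS sample of WT. After BSA the members ran from -0.18 for Ube2n to 0.084 for Ube2d2a, with 6 of 8 below 0 against 51% of genes (0.848% called, 10.3% unadjusted). After IgG they ran from -0.15 for Ube2w to 0.062 for Ube2v1, with 5 of 8 below 0 against 48.4% of genes (0.774% called, 7.79% unadjusted). The 103 genes called after BSA became 65 or 67 without the number 10 or 14 BSA sample of the TRIM21 line and 67 without the number 14 BSA sample of WT, and the 94 after IgG became 146 without the number 11 PBS sample of the TRIM21 line.

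The question put to the treatments was whether an antibody in the cytosol moved the mRNA of the machinery that TRIM21 uses. In the TRIM21 line, IgG minus PBS was below 0 for all 8 members, from -0.25 for Ube2n to -0.064 for Ube2v1, with a median of -0.11 against 0.0080 over all tested genes, of which 48.3% were below 0. None of the 8 was called, nor was any other gene (0% by edgeR, 0 by DESeq2), and 5.61% of genes and 1 member, Ube2n, had an unadjusted p under 0.05. For Ube2n, whose 3 IgG values lay below its 3 PBS values as 8.95% of tested genes did in one direction or the other, the difference was -0.25 (SE 0.11, edgeR adjusted p = 0.724). In the same comparison the fibroblast markers went the other way, with 7 of 8 above 0 and a median of 0.28, and 0 of 8 called. Their summed level in that line was 23302, 16433 and 26964 CPM after PBS (numbers 10, 11 and 14). After IgG it was 27541, 25140 and 24603 CPM. The low PBS value is that of number 11, and the markers' shift without that sample was not tested.

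BSA minus PBS in the TRIM21 line shares those PBS samples, and it was also below 0 for all 8 members (49.9% of genes; median -0.13; 0% of genes called, 3.68% at an unadjusted p under 0.05). Ube2n was again the farthest from 0, at -0.24 (SE 0.11, edgeR adjusted p = 0.841). The comparison of antibody with the control protein does not use the PBS samples. IgG minus BSA in the TRIM21 line ran from -0.060 for Ube2w to 0.064 for Ube2v1, with 4 of 8 below 0 (52.1% of genes) and 95% intervals that together reached from -0.31 to 0.39 (0% of genes called, 0.371% at an unadjusted p under 0.05).

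The values against PBS moved when 1 sample was left out. The number 11 sample of the TRIM21 line after PBS was the highest of all 18 for 7 of 8 members, all but Ube2w, and the median member lay 0.35 above its own mean over the samples on the log2 scale, while the median of all tested genes in that sample lay at -0.027. It also had the lowest gene count of its line (20314542) and the lowest summed fibroblast markers of the 18 samples, 16433 CPM against 22229 to 31140 in the others. Its summed endothelial markers were the highest of the 18, at 2.45 CPM against at most 1.24 in the others, from 3 markers with at most 43 counts (Cdh5), 9 counts (Pecam1) and 1 count (Kdr) per sample. The part of these in the members' values was not tested. Without it, IgG minus PBS was below 0 for 3 of 8 members with a median of 0.011, and Ube2n stood at -0.13 (edgeR adjusted p = 1). Without it, BSA minus PBS was below 0 for 4 of 8 members with a median of -0.0043, and the line difference after PBS was below 0 for 3 of 8 with a median of 0.040.

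**Figure D3:**
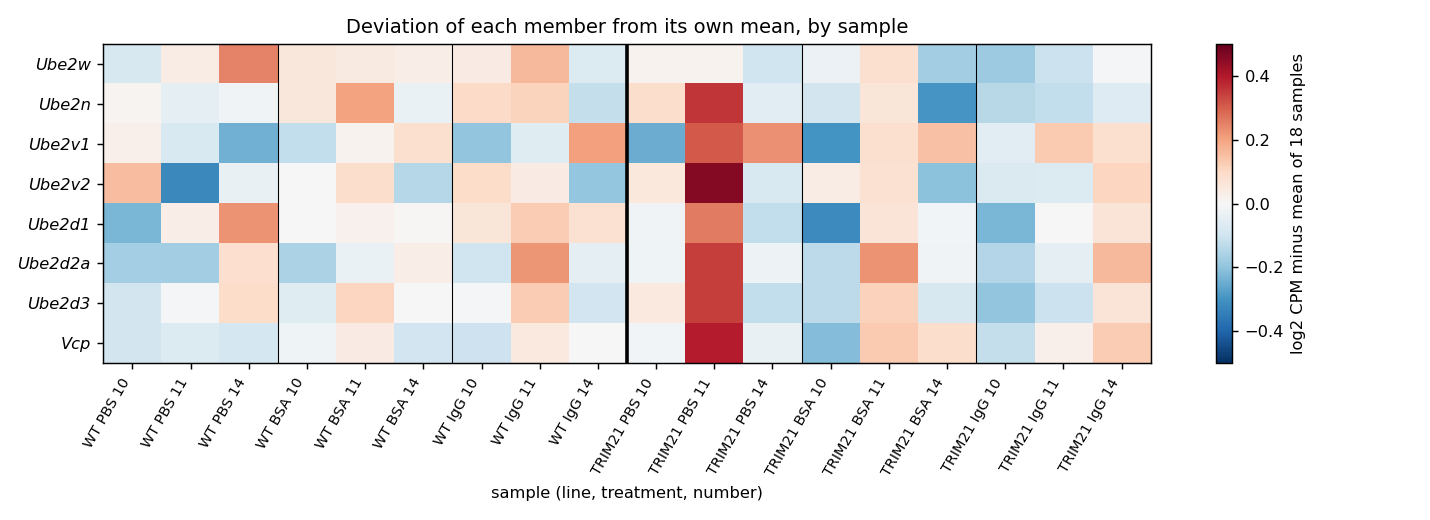
Log2 CPM of each member minus its own mean over 18 samples (colour), by sample (x axis) and gene (y axis). The column of the number 11 sample of the TRIM21 line after PBS is the darkest red, at a median of 0.35.

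**Figure D4:**
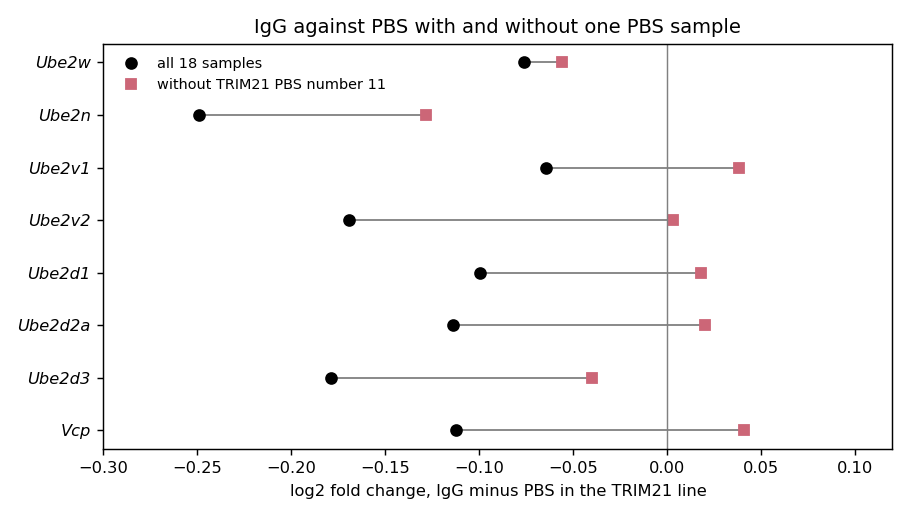
Log2 fold change of IgG minus PBS in the TRIM21 line (x axis) for each member with all 18 samples (black circles) and without the number 11 PBS sample (red squares). All 8 circles lie below 0, and 5 of the squares lie above 0.

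In WT, which lacks the introduced TRIM21, the same treatments also gave 0 of 8 called. IgG minus PBS ran from -0.025 for Ube2w to 0.11 for Ube2d2a with 7 of 8 above 0 (49.6% of genes; 0% called, 2.68% unadjusted). IgG minus BSA ran from -0.044 for Ube2n to 0.083 for Ube2d2a (0% called, 5.87% unadjusted), and BSA minus PBS from -0.029 for Ube2w to 0.095 for Ube2n (0% called, 2.49% unadjusted). The difference between the lines in the response to IgG against PBS was tested itself. It was below 0 for all 8 members (48.4% of genes), from -0.30 for Ube2n (SE 0.16, 95% interval -0.63 to 0.029, edgeR adjusted p = 0.972) to -0.051 for Ube2w, with 0% of genes called (1.82% unadjusted), and it uses the same PBS samples. Leaving out each sample in turn kept 7 to 8 members below 0. Without the number 11 PBS sample of the TRIM21 line all 8 stayed below 0. Ube2n was then at -0.18, and the median over the 8 went from -0.18 to -0.048. The difference between the lines in the response to BSA against PBS was -0.34 for Ube2n (SE 0.16, edgeR adjusted p = 0.651; 0% of genes called, 6.51% unadjusted) and -0.22 without that sample. For IgG against BSA it ran from -0.12 for Ube2d2a to 0.067 for Ube2v1 (0% called, 3.98% unadjusted).

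The number in the sample titles is the one other grouping that the labels give, and it was compared in a fit that also held the 6 groups. Number 10 against the mean of 11 and 14 gave 669 called genes (5.51%), and 0 of the 8 members were among them. Leaving out 1 number 10 sample lowered the count of genes to 204 (WT after IgG), 211 (TRIM21 line after BSA), 241 (WT after PBS) or 300 (TRIM21 line after IgG), and leaving out the number 14 BSA sample of the TRIM21 line to 402. At an unadjusted p under 0.05 stood 4 of 8 members, against 21.2% of all tested genes. They were Ube2v1 at -0.22 (SE 0.080, edgeR adjusted p = 0.119), Ube2d2a at -0.19 (adjusted p = 0.109), Ube2d1 at -0.18 (adjusted p = 0.115) and Vcp at -0.14 (adjusted p = 0.177). Leaving out 1 sample brought 1 member under the threshold in 3 of 18 cases: Ube2d1 without the number 14 PBS sample of the TRIM21 line, Ube2d2a without the number 11 PBS sample of WT and Ube2v1 without the number 14 PBS sample of WT (edgeR adjusted p = 0.0415, 0.0462 and 0.0442). The labels do not say what the numbers stand for.

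Ratios of counts within a sample need no scaling between libraries, and 5 were compared between the lines by two-sided exact permutation tests over 48620 assignments, with Benjamini-Hochberg adjustment over the 5. Their size also reflects gene length, so only their change between samples is read. The assignments took no account of treatment or number. Ube2n to the sum of its partners Ube2v1 and Ube2v2 was 1.93 in the TRIM21 line and 2.12 in WT (geometric means, n = 9 each), a log2 difference of -0.13 (exact permutation p = 0.0206, adjusted p = 0.0594). The TRIM21 values ran from 1.71 to 2.26 and the WT values from 1.88 to 2.27, and within numbers 10, 11 and 14 the difference was -0.017, -0.21 and -0.18. Ube2d2a to Ube2d3 was 0.238 in the TRIM21 line and 0.224 in WT, a log2 difference of 0.091 (exact permutation p = 0.0238, adjusted p = 0.0594), with 0.085, 0.13 and 0.061 within the numbers. Neither passed the threshold after adjustment. Both did when certain single samples were left out, 2 of the 18 for Ube2n to its partners and 3 of the 18 for Ube2d2a to Ube2d3. For Ube2n to its partners these were the number 10 PBS sample of the TRIM21 line and the number 14 IgG sample of WT (exact permutation adjusted p = 0.0202 and 0.0387). For Ube2d2a to Ube2d3 they were the same 2 samples (adjusted p = 0.0249 and 0.0387, exact permutation) and the number 11 IgG sample of WT (0.0366).

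The remaining ratios differed less. Ube2v1 to Ube2v2 was 0.741 in the TRIM21 line and 0.734 in WT (exact permutation adjusted p = 0.911), and it varied most of the 5 between samples, from 0.585 to 0.970. It was 0.585 to 0.745 in the 6 samples numbered 10 and 0.640 to 0.970 in the 12 others. Ube2d1 to Ube2d3 was 0.149 and 0.155 (exact permutation adjusted p = 0.358), and Ube2w to Ube2n 0.820 and 0.848 (exact permutation adjusted p = 0.568).

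Levels of different genes were compared as CPM per kilobase of merged exons (RPKM). Vcp was the highest at 55.3 ± 5.46 (SD, n = 18), followed by Ube2n at 17.3 ± 1.79, Ube2w at 12.3 ± 0.943, Ube2d3 at 11.5 ± 1.08, Ube2d1 at 9.81 ± 0.988, Ube2d2a at 5.63 ± 0.619, Ube2v1 at 5.62 ± 0.679 and Ube2v2 at 2.91 ± 0.358. Neighbours in this order kept it in 18 of 18 samples, except Ube2w above Ube2d3 in 17 and Ube2d2a above Ube2v1 in 8, a pair whose levels did not differ beyond their spread. The order depended on the length used: merged exons and principal coding transcript are 24499 and 3833 bases for Ube2d3, 11565 and 2480 for Ube2d2a, 4930 and 543 for Ube2w and 4371 and 1431 for Ube2d1. Of 28 pairs, 23 kept their order under 3 lengths (merged exons, longest transcript, principal coding transcript). The other 5 were Ube2n with Ube2w, Ube2d1, Ube2d2a and Ube2d3, and Ube2w with Vcp. Ube2n, the second of the 8 by merged exons, was the sixth by principal transcripts, at 18.9 RPKM. Vcp was above all but Ube2w under each length, and Ube2v1 and Ube2v2 were the lowest. The principal transcript of Ube2w is 543 bases with 540 coding, so its level of 111.8 RPKM under that length is not comparable with the others. Ube2v1 made up 65.8% ± 3.60 of the per-length level of the partner pair (SD, n = 18), and 60.3% ± 3.84 with the principal transcripts. In the Ube2d group, Ube2d3 made up 42.7% ± 1.20, Ube2d1 36.4% ± 1.49 and Ube2d2a 20.9% ± 1.04, and with the principal transcripts 56.7%, 23.1% and 20.2%.

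**Figure D5:**
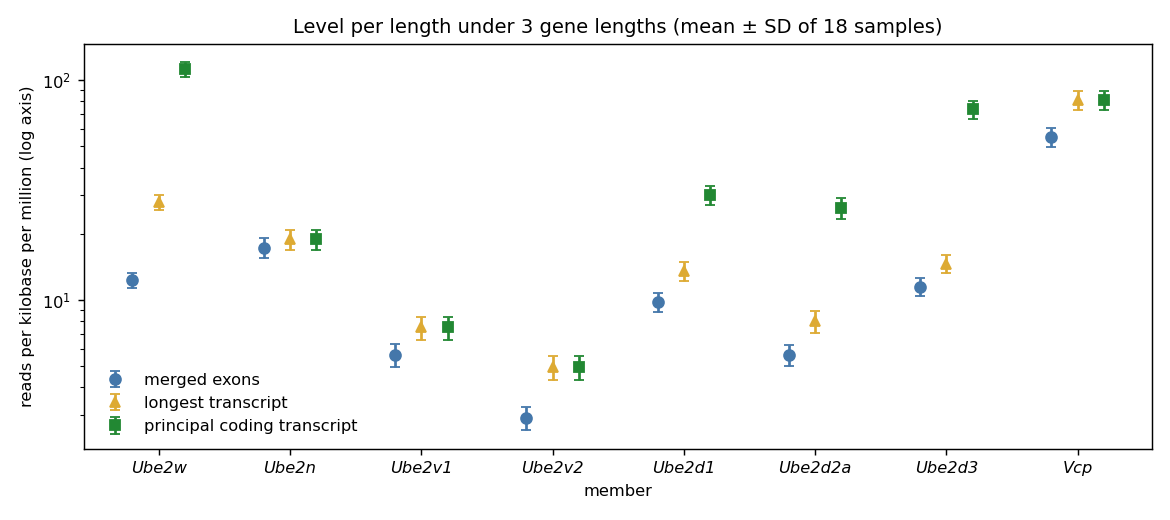
Level per length (y axis, log scale) of the 8 genes (x axis) under 3 gene lengths, as mean and SD of 18 samples. Ube2v2 is the lowest under each length and Vcp is the highest except under the principal length, where Ube2w stands at 111.8.

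Some members share sequence with other annotated transcripts, which may lower the reads that can be placed uniquely. Of the windows of 50 bases along the principal transcript, 60.1% recur in Vcp-rs for Vcp. For Ube2v1 18.2% recur in genes elsewhere and 83.2% when the overlapping gene Gm20431 is included, and the shares elsewhere were 16.3% for Ube2d2a, 10.7% for Ube2n, 9.36% for Ube2v2 and 6.29% for Ube2d3. Ube2d1 and Ube2w shared 0 windows, and no window of a member recurred in another gene listed in the count files. Gm20431 overlaps Ube2v1 at the same place and is not listed in the count files, so its share does not bear on unique placement. Levels of the members with shares elsewhere, Vcp most, are therefore uncertain, while the same sequence was counted in every sample. RefSeq promoter windows (GRCm38.p6, 300 bases) matched 5 of the 8 members, Ube2n, Ube2v1, Ube2d1, Ube2d3 and Vcp, in 8 windows. These held 18 to 45 CG dinucleotides against a median of 7 over 32851 windows, with the fewest at Vcp and the most at Ube2d3.

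By the root-mean-square difference of log2 CPM over the 18 samples after centring each gene, the genes closest to each member were Dstn (0.054) and Agpat5 (0.064) for Ube2n, Rab2a (0.051) and Rab1 (0.052) for Ube2w, Marcksl1 (0.085) and Def8 (0.098) for Ube2v1 and Coq10b (0.065) and Slc25a15 (0.070) for Ube2v2. For the Ube2d enzymes they were Stambpl1 and Pgrmc2 for Ube2d1 (0.064 and 0.065), Cbfb and Spast for Ube2d2a (0.060 and 0.067) and Cfl2 and Hsd17b12 for Ube2d3 (0.047 and 0.051), and for Vcp 4833439L19Rik and Mrps15 (0.056 and 0.059). The median over all genes was 0.22 to 0.25, and the measure favours genes that vary little. Stambpl1 is a deubiquitinase that cuts K63 links and is in the list of such genes below.

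Other genes of the pathway were described from 3 lists. Of the ubiquitin genes and the E1 enzyme Uba1, 5 of 5 were tested and 0 passed in either direction between the lines (median -0.011) or for IgG minus PBS in the TRIM21 line (median -0.071). Over all tested genes 6.18% passed between the lines and 0% for IgG minus PBS in the TRIM21 line, with medians of 0.014 and 0.0080, and these stand behind the counts of the other lists too. Those with most counts were Rps27a, a ubiquitin fusion with a ribosomal protein, at 789 ± 84.0 CPM in the TRIM21 line and 805 ± 84.3 in WT, and Uba1, which charges E2 enzymes, at 664 ± 66.4 and 609 ± 42.2 (SD, n = 9 each). Ubb was counted at only 19 to 61 reads, and its repeats of near-identical ubiquitin units make its count uncertain. Of the p97 cofactors and adaptors, 24 of 26 were tested and 0 passed in either direction (medians 0.028 and 0.0034 in these comparisons), and Ubxn10 and Svip had 1 count each in all samples together. Plaa stood at 161 ± 21.9 and 149 ± 11.4 CPM and Faf1 at 154 ± 18.5 and 146 ± 10.6. Vimp, an ER anchor of Vcp, had the lowest adjusted p of the 3 lists between the lines (-0.27, edgeR adjusted p = 0.0527) and was named after its value was seen. Of the ligases, editors and regulators of K63 chains, 15 of 15 were tested and 0 passed (medians 0.035 and -0.015), with Otub1, which inhibits Ube2n, at 139 ± 10.2 and 134 ± 12.5 CPM and Rnf168 at 103 ± 11.5 and 95.2 ± 7.03.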

How the data were processed

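Each sample had 1 deposited file of whole-number counts for every gene symbol, with no normalization applied. The submitters' processing notes name bcl2fastq 2.19.1.403, FastQC 0.11.5, STAR 2.5.1b, HTSeq 0.6.0, DESeq2 1.6.3 and mm10, without roles or settings. Libraries were strand-specific and polyA-enriched, per the labels' protocols. Rows that name no gene held 46.5% to 50.5% of each file's total and were left out, and reads aligned to several places were among them. Groups were taken from line and treatment in the labels.

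The analysis used edgeR 4.0.16 (R 4.3.3) with these settings (filterByExpr with a minimum count of 10 and total of 15, which kept 12140 of 24062 genes, TMM factors, 1 mean per group over 18 samples, glmQLFit and glmQLFTest, Benjamini-Hochberg over all tested genes, threshold 0.05). Standard errors came from the F statistic. Ratios were tested with scipy 1.17.1. Between samples of 1 group, chi-square divided by its degrees of freedom was 10.6 to 82.0, above sampling noise. The procedure was tested on simulated data. Alternatives were DESeq2 size factors, no filter, DESeq2 1.42.0, only the groups compared, the replicate block, other lengths and leaving out each sample.

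Members and lists were chosen with earlier results of these data known. The text names all 8 members, Trim21, listed genes passing the test between the lines (up to 4 a list), the 2 with most counts of each pathway list, and the 2 genes closest to each member. Lengths, positions and sequences came from GENCODE M21 (GRCm38).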

Additional observations from a re-analysis of the deposited data

Results flagged for a closer look

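Within the TRIM21 line, the number 11 sample after PBS had 28.3 CPM of Ube2v2, far above the other 8 samples of that line, which ran from 17.9 to 22.2 CPM. The gap to the next sample was 0.586 of the whole range. The same sample was also the highest of that line for Vcp, Ube2d3 and Ube2n, with unflagged gaps of 0.480, 0.472 and 0.464. Its gaps were smaller for Ube2d1, Ube2d2a and Ube2v1, and it was not the highest for Ube2w. Each member was checked in each line, 16 sets of 9 samples in all, and chance flags about 1 in 20 such sets. The sets of a line share the same samples, so they are not independent.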

How the results depend on the processing

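With DESeq2 size factors, no filter, the DESeq2 Wald test, only the groups compared or the replicate block, 0 of 8 members were called in every comparison each was run for, as in the main analysis. Genes called between the lines went from 750 to 1461 with the replicate block; after PBS from 208 to 268, 451, 847 and 47 (no filter, DESeq2 Wald, block, only the groups compared), after BSA from 103 to 164 and 187 (DESeq2 Wald, block) and after IgG from 94 to 166, 173 and 189 (DESeq2 Wald, block, only the groups compared). The numbers were not taken to pair the samples: 32 of 45 same-numbered pairs correlated over 0.1, the lowest at -0.32, while 16 of 18 samples were closest on average to their own number. With the block Ube2w stood at -0.11 between the lines (adjusted p = 0.217). Over 9 pairs of equal number and treatment, Ube2d2a to Ube2d3 was higher in the TRIM21 line in 8 and Ube2n to its partners lower in 8 (exact sign-flip permutation, adjusted p = 0.0586 and 0.0977).

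Leaving out 1 sample at a time moved counts of members below 0: from 1 to 3 between the lines after PBS, 3 to 8 after BSA, 3 to 8 for IgG minus PBS and 0 to 7 for IgG minus BSA in TRIM21, 4 to 8 for BSA minus PBS, in WT 0 to 3, 1 to 6 and 0 to 4 (IgG minus PBS, IgG minus BSA, BSA minus PBS), and 2 to 7 for the difference between lines in IgG minus BSA. Medians ran from 0.040 to 0.23 between the lines after PBS, -0.19 to 0.011 for IgG minus PBS and -0.20 to -0.0043 for BSA minus PBS in TRIM21. Members called for number 10 ran from 0 to 1. Genes called ran from 500 to 1244 between the lines, 98 to 1014 after PBS, 65 to 135 after BSA, 66 to 146 after IgG and 204 to 877 for number 10. Between the lines Ube2d3 ran from -0.056 to 0.024, Ube2n from -0.096 to -0.026, Ube2v1 from 0.054 to 0.14, Ube2v2 from 0.013 to 0.11, Ube2w from -0.13 to -0.076, Ube2d1 from -0.11 to -0.029, Ube2d2a from 0.035 to 0.12, Vcp from 0.041 to 0.13 and the median of the 8 from -0.021 to 0.046. For IgG minus PBS in TRIM21, Ube2v1 ran from -0.22 to 0.038, Ube2v2 from -0.28 to 0.0031, Ube2d1 from -0.18 to 0.018, Ube2d2a from -0.20 to 0.020 and Vcp from -0.19 to 0.041. Among log2 ratio differences, Ube2v1 to Ube2v2 ran from -0.030 to 0.063, Ube2d2a to Ube2d3 from 0.077 to 0.11 and Ube2n to its partners from -0.16 to -0.11. Within number 10 Ube2v1 to Ube2v2 was -0.026 and Ube2w to Ube2n 0.032; within number 11 Ube2v1 to Ube2v2 was -0.0082 and Ube2d1 to Ube2d3 0.0037. With 3 against 3 an exact permutation p cannot go below 0.1.

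By the longest transcript, levels in RPKM were Vcp 80.9, Ube2w 27.8, Ube2n 18.9, Ube2d3 14.6, Ube2d1 13.6, Ube2d2a 7.98, Ube2v1 7.49 and Ube2v2 4.93. By the principal transcript, a length chosen after seeing the data, they were Ube2w 111.8, Vcp 80.9, Ube2d3 73.5, Ube2d1 29.97, Ube2d2a 26.2, Ube2n 18.9, Ube2v1 7.49 and Ube2v2 4.93. The cause of the other changes was not tested. With 268 to 514 counts of Ube2v1 per sample, its intervals between lines and treatments were the widest of the 8.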
